A study of Mus musculus with 2 samples.

Results

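The genes described here encode the proteins of the mitochondrial ribosome that carry an Mrpl or Mrps symbol. They were chosen by symbol alone (Mrpl or Mrps followed by a number), which gave 78 of the 31053 genes in the deposited table: 49 Mrpl and 29 Mrps genes. The knockout group was NKp46CreEP3F/F, in which Cre recombinase driven from the NKp46 locus (Ncr1, an NK cell receptor) deletes floxed EP3, and the control group was EP3F/F. EP3 is encoded by Ptger3, a receptor for prostaglandin E2. All mice were C57BL/6, and splenic NK cells sorted as CD27 and CD11b positive were pooled from 2 mice per genotype into 1 droplet library of 3' tags each. Both groups carry the floxed alleles, and the deletion rests on Cre expression in NKp46-positive cells.

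Mitochondria translate their own few messenger RNAs, all of which encode respiratory chain or ATP synthase subunits, on a dedicated ribosome. Its RNAs come from the mitochondrial genome, and its proteins are encoded in the nucleus, made in the cytosol and imported. Many of these proteins have bacterial homologues, and others were added during the evolution of mitochondria. By these roles the 78 genes comprised 51 proteins of the large subunit and 26 of the small subunit, with 46 bacterial homologues and 30 mitochondria-specific proteins in all. Despite their names, Mrps18a and Mrps30 belong to the large subunit. Mrps36 is counted apart, as a component of the 2-oxoglutarate dehydrogenase complex.

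The promoters of 4 members are shown because these genes carried the main results: Mrpl33 had the highest mean level over both libraries in resting cells, Mrps26 and Mrpl58 had the highest and lowest ratio of knockout to control among measured members, and Mrpl51 rose in G2/M cells. Each runs 5′ to 3′ from 250 bases before to 50 bases after the start of the gene, as RefSeq gives it for GRCm38.p6. Capitals mark the core motif of ETS factors such as GABP (CCGGAAG on either strand) or of SP1 (GGGCGGG on either strand).
Mrpl33 promoter, chr5:31613701-31614000, plus strand: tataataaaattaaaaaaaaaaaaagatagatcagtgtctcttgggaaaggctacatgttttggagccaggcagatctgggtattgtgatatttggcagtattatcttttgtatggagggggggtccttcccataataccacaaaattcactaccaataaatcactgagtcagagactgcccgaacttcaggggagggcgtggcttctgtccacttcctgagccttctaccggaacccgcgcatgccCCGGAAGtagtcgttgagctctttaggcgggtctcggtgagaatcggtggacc
Mrps26 promoter, chr2:130563507-130563806, plus strand: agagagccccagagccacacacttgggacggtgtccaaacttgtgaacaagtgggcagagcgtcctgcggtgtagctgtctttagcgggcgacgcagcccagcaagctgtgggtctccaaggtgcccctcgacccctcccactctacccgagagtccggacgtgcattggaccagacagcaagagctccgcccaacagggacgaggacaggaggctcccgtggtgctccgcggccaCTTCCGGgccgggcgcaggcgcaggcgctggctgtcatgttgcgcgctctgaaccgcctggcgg
Mrpl58 promoter, chr11:115403502-115403801, plus strand: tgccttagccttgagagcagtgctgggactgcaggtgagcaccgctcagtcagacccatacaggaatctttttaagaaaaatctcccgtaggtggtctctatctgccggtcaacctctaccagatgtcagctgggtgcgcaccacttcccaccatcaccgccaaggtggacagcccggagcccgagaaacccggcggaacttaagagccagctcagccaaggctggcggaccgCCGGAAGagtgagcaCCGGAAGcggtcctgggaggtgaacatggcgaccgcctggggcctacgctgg
Mrpl51 promoter, chr6:125191950-125192249, plus strand: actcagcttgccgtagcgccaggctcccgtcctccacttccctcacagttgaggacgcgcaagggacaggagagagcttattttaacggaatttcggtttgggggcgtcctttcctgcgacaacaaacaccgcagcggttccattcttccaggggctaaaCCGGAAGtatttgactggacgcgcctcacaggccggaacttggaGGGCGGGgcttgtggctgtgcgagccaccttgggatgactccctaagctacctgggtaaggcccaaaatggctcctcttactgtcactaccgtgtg
The ETS motif began at position -3 from the start in Mrpl33, at -14 in Mrps26 and at -90 in Mrpl51, and at -17 and again at -2 in Mrpl58. It was thus present in the measured members with the highest and the lowest ratio of knockout to control alike. Of the 69 members with a RefSeq promoter, 26 (37.7%) held this motif, against 25.8% of 5779 genes measured in resting NK cells and 12.9% of 17491 protein-coding genes. The core motif of YY1 was in 7.25% of members, 2.58% of measured genes and 1.06% of protein-coding genes. The core motif of NRF1 was in 4.35% of members (Mrpl9, Mrpl32 and Mrpl39), 2.75% of measured genes and 1.47% of protein-coding genes. SP1 motifs were in 42.0% of members and 54.4% of measured genes, the CREB motif TGACGTCA in 2.90% and 3.95%, and the E-box CACGTG of MYC in 7.25% and 12.5%. In Mrps16 an ETS and an SP1 match overlap. A match of letters is no measurement of binding. Head to head here means that another protein-coding gene starts upstream on the opposite strand, at most 1000 bases away. Pairs with overlapping 5′ ends, such as Mrpl46 and Mrps11, were not counted. By this rule 18 of the 78 members (23.1%) were head to head, against 6.77% of 22028 protein-coding genes. The share among genes measured in resting NK cells was not computed. Mrpl51 lay 100 bases from Ncapd2, a condensin subunit, Mrpl57 lay 49 bases from Ska3, a kinetochore protein, and Mrps12 lay 172 bases from Sars2, a mitochondrial seryl-tRNA synthetase.

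The knockout library held 42795121 unique molecular identifiers (UMIs) over 10615 barcodes and the control library 69853026 over 11785, with medians of 3745 and 5641 UMIs per barcode. After filtering, 10023 knockout and 10928 control cells were kept. Cells were placed by marker UMIs after each was thinned to a fixed number of UMIs, and resting NK cells were those with NK markers and few UMIs of division, activation or interferon genes: 7968 knockout and 8679 control cells. The gate itself required UMIs of the 9 NK markers, all of which were detected in every tertile of resting cells in both libraries. Ptger3 had 0 UMIs in knockout resting cells, which allows a level of up to 0.0883 counts per 1000000 UMIs (CPM), against 12 UMIs (0.220 CPM) in control resting cells. Whether its tags lie in the deleted part is not given in the sources used here.

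In resting NK cells the members together took 4654 CPM in the knockout library (95% Poisson interval 4632 to 4677) and 4273 CPM in the control library (4255 to 4290). The log2 ratio was 0.12 (0.11 to 0.13). These intervals cover counting error alone, and with 1 library per genotype no test between genotypes can be made. All 78 members had UMIs. Of these, 74 reached a mean of 10 CPM over both libraries and were called measured. Mrpl47 was listed at 9.12 CPM in knockout and 9.84 CPM in control cells, Mrps2 at 5.15 and 5.27 CPM, Mrps27 at 4.53 and 5.53 CPM, and Mrpl53 at 2.33 and 1.08 CPM, in the same order of groups. Of the 790 exon bases of Mrpl53, 695 overlap exons of Gm42688 on the same strand, including its whole tag region, so its level is uncertain.

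The 6 most abundant members in resting cells gave 22.6% of all member UMIs in the knockout and 23.7% in the control library. Mrpl33, a bacterial L33 homologue of the large subunit, had 223 CPM in knockout and 263 CPM in control cells. Mrpl52, a mitochondria-specific protein of the large subunit, had 225 CPM in knockout and 210 CPM in control cells. They were followed by Mrpl30 at 159 and 145 CPM, and by the small subunit genes Mrps24 at 165 and 133 CPM, Mrps21 at 133 and 140 CPM and Mrps14 at 147 and 122 CPM, knockout before control. The levels of Mrpl33 and Mrpl52 had overlapping intervals in the knockout library and separate ones in the control library. At the other end of the measured members were Mrpl37 (9.86 CPM in knockout, 11.1 CPM in control cells), Mrps28 (11.01 and 11.3 CPM), Mrps18b (12.4 and 10.2 CPM) and Mrpl45 (12.4 and 18.1 CPM). Levels of 3' tags are not divided by length, since 1 tag is counted per transcript. Part of the tag region of some members has near copies elsewhere: 99.4% of it in Mrpl23 (Mrpl23-ps1), 49.9% in Mrpl22 (Gm6997) and 31.5% in Mrps36 (several pseudogenes), and reads of these genes could be split.

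Between genotypes, members ran modestly higher in knockout resting cells. By a size rule of at least 0.32 on the log2 scale, which is a description and not a test, 13 of 74 were higher (17.6%), 4 were lower (5.41%) and 57 lay between. Over all 7332 measured genes, 14.8% were higher and 29.6% were lower by the same rule. The share of higher members was near this background, and the share of lower members was below it. The median log2 ratio of members was 0.17, against -0.07 for all measured genes, and 56 of the 74 members were above 0. Exon length moved with this difference: among 2750 other measured genes with exons between 1479.5 and 4264 bases, the middle range of the members, 23.9% were higher, 12.6% were lower and the median was 0.11. After subtraction of the median of the 300 genes nearest in length, the members' median was 0.06. The part of length in the difference was not tested further.

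Among the members that were higher, Mrps26, a mitochondria-specific protein of the small subunit, had 107 CPM in knockout and 68.4 CPM in control cells, a log2 ratio of 0.65 (0.58 to 0.71). Mrps18c, a bacterial S18 homologue of the small subunit, had 82.9 CPM in knockout and 54.4 CPM in control cells, a log2 ratio of 0.61. Mrpl27, a bacterial L27 homologue near the peptidyl transferase centre, had 36.7 CPM in knockout and 24.4 CPM in control cells, a log2 ratio of 0.59. The 2 libraries' intervals did not overlap for these 3 genes. Mrpl2, a core protein of the large subunit, followed at 0.57, and Mrpl57 at 0.48, Mrpl17 at 0.42, Mrps35 at 0.39 and Mrpl41 at 0.37. The other 5 of the 13 were Mrpl55, Mrpl11, Mrpl13, Mrpl43 and Mrpl40, at 0.36, 0.34, 0.34, 0.33 and 0.33. Mrpl40 at 0.33 lay just inside the bound of 0.32 and Mrps24 at 0.318 just outside it.

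The 4 members that were lower had diverse roles. Mrpl58, a peptidyl-tRNA hydrolase that is built into the large subunit and frees stalled chains, had 79.4 CPM in knockout and 124 CPM in control cells, a log2 ratio of -0.65 (-0.71 to -0.59). Mrps25, a mitochondria-specific protein of the small subunit, had 29.5 CPM in knockout and 44.7 CPM in control cells, a log2 ratio of -0.60. Mrpl45, which lies at the exit of the nascent chain and contacts the inner membrane, had 12.4 CPM in knockout and 18.1 CPM in control cells, a log2 ratio of -0.54. Mrps6, a bacterial S6 homologue, had 17.5 CPM in knockout and 24.0 CPM in control cells, a log2 ratio of -0.46, and its exons overlap Slc5a3 on the same strand. Next in order, within the bound, were Mrpl1 at -0.27, Mrpl33 at -0.24, Mrpl24 at -0.19 and Mrpl37 at -0.18. All 13 higher and all 4 lower members kept their direction in each maturation tertile. The tertiles are parts of the same cells that gave these ratios, so this is no replication.

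**Figure D1:**
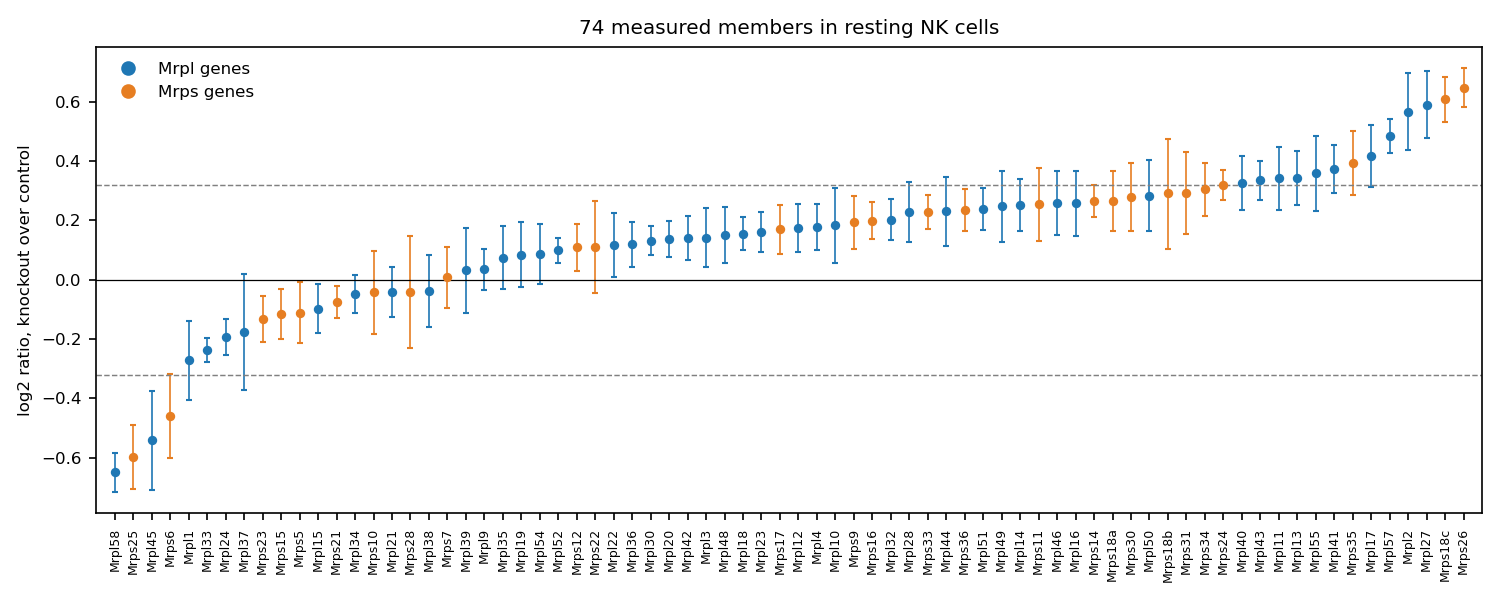
Log2 ratio of knockout over control CPM (y axis) for each of the 74 measured members in resting NK cells, in rising order, with 95% conditional binomial intervals for counting error and dashed lines at 0.32 and -0.32. Mrpl58 at -0.65 stands lowest and Mrps26 at 0.65 highest, and 57 members lie between the dashed lines.

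In both subunits and in both ancestry classes, more members were higher than lower by the same rule. Over all measured genes 14.8% were higher and 29.6% lower. In the large subunit 10 of 49 measured members were higher and 2 lower, and the summed log2 ratio was 0.10 (0.09 to 0.11). In the small subunit 3 of 24 were higher and 2 lower, and the summed log2 ratio was 0.17 (0.15 to 0.18). Bacterial homologues had 7 higher and 1 lower of 44, and mitochondria-specific proteins had 6 higher and 3 lower of 28.

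Other genes of mitochondrial translation were compared by the same rule. Of the 5 ribosome proteins without an Mrp name, 0 were higher and 2 lower: Ptcd3, at 17.7 CPM in knockout and 24.5 CPM in control cells (-0.47), and Gadd45gip1, at 41.2 and 53.3 CPM (-0.37). Of 10 measured assembly factors, 4 were higher, led by Ngrn (0.49) and Malsu1 (0.38), and 1 was lower, the methyltransferase Mettl17 (-0.52). Of 10 translation factors, 2 were higher, Oxa1l (0.44), the insertase of newly made membrane proteins, and the elongation factor Tsfm (0.43), and 1 was lower, the recycling factor Gfm2 (-0.50). Of 6 mitochondrial tRNA synthetases, 1 was higher, Fars2 (0.40), and 2 were lower, led by Iars2 (-0.58). Among 8 genes of mitochondrial RNA expression, Lrpprc, which stabilises mitochondrial messenger RNAs, was lower (-0.77). Of the 75 measured nuclear respiratory chain genes, 12 were higher and 0 lower. Their median of 0.17 was that of the members. Import had 7 of 21 higher and 2 lower, and cytosolic ribosomal proteins had 4 of 80 higher and 1 lower. The background for these counts is the 14.8% higher and 29.6% lower of all measured genes. After subtraction of the median of genes of like length, the respiratory chain had 5 higher and 1 lower with a median of 0.03, import had 3 higher and 1 lower, cytosolic ribosomal proteins had 1 higher and 3 lower, and tRNA synthetases had 2 higher and 0 lower. The members then had 14 higher and 6 lower, and all 7332 measured genes had 1157 higher and 1380 lower.

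Within the sorted CD27 and CD11b positive NK cells, the summed level hardly moved along a maturation score. Stages left out by this sort were not measured. Cells were ordered by a score from surface, effector and transcription factor genes that holds no member, and were split into tertiles. Each library was cut at its own scores, -0.116 and 0.138 in knockout and 0.0 and 0.239 in control. Tertiles are thus not matched between libraries. In the knockout library the members took 4582 CPM in the least mature, 4672 CPM in the middle and 4717 CPM in the most mature tertile. In the control library they took 4264, 4278 and 4277 CPM from least to most mature. Over deciles of the score the range was 4550 to 4805 CPM in the knockout library and 4219 to 4314 CPM in the control library. Cytosolic ribosomal proteins made up 27.0% of UMIs in the least mature and 23.0% in the most mature decile of the knockout library. In the control library they made up 25.7% and 21.4%. By edgeR's quasi-likelihood test of the tertiles, 0 of 80 rose and 0 fell, with a median log2 fold change of -0.17. Median UMIs per cell also fell between these deciles, from 4086 to 3477 in knockout and from 6322 to 5062 in control. By UMIs per cell, cytosolic levels ran from 193460 CPM in the lowest to 252868 CPM in the highest decile of control cells. The part of depth was not tested. The score is a range and not a set of types: 19.9% of knockout and 16.9% of control cells lay near a boundary.

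**Figure D2:**
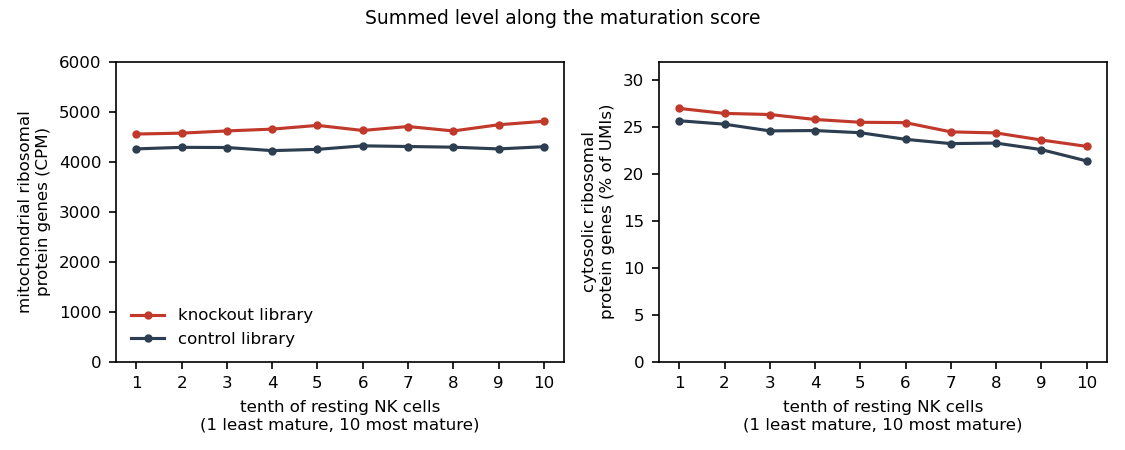
Summed level of the 78 members in CPM (left) and of cytosolic ribosomal proteins in percent of UMIs (right) in deciles of resting NK cells by maturation score, for the knockout (red) and control (dark) library. Member lines stay between 4550 and 4805 CPM in knockout and between 4219 and 4314 CPM in control cells, while the cytosolic share is lower in the most mature decile.

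State contrasts were tested with each library as a block, on UMIs summed per library and state. The 2 libraries are the replicates of a state contrast and they differ in genotype. Of 73 members tested, 0 rose and 2 fell in the most mature against the least mature tertile (edgeR's quasi-likelihood test with Benjamini-Hochberg adjustment), where 4.24% of all 7579 genes rose and 4.97% fell. At an unadjusted p under 0.05, 5 were higher and 7 lower. DESeq2 called 0 in either direction, where it called 0.633% of all genes higher and 1.21% lower. Mrpl14, a bacterial L14 homologue of the large subunit, had 50.7 CPM in mature and 62.1 CPM in immature knockout cells, and 40.4 CPM in mature and 50.8 CPM in immature control cells. Its log2 fold change was -0.33 ± 0.07 (SE, adjusted p = 0.00123 by edgeR's quasi-likelihood test). Mrps34, a mitochondria-specific small subunit protein whose exons overlap Nme3 on the same strand, had 49.1 CPM in mature and 56.0 CPM in immature knockout cells, and 38.3 CPM in mature and 47.0 CPM in immature control cells, a log2 fold change of -0.26 (adjusted p = 0.0178 by the same edgeR test). Both were lower in the mature tertile of each library, and with no block 0 members fell, where 0.066% of all genes did. Simulated 2-fold changes were recovered in 100% of cases in this contrast and simulated 1.5-fold changes in 57.4%. The simulated spread between sums was a fixed setting, larger than the common dispersion of 0.00102 in the fit. These shares hold for that spread only.

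Among the NK states, dividing cells had the highest summed levels. In G2/M cells, marked by Mki67, Top2a and Cdk1 among others, the members took 5550 CPM in the knockout library (5232 to 5883, 22 cells) and 5296 CPM in the control library (5133 to 5462, 70 cells). Against resting cells these are log2 ratios of 0.25 in knockout and 0.31 in control. S phase cells, marked by Mcm genes and Pcna, had 5104 CPM in the knockout (28 cells) and 5102 CPM in the control library (103 cells), log2 ratios of 0.13 and 0.26. All 4 intervals lay above the resting level of their own library. Dividing cells also held more UMIs, with medians of 9384.5 in knockout and 9879 in control G2/M cells, against 3745 and 5641 UMIs per barcode overall. Over deciles of resting cells by UMIs, the members' level ranged from 4521 to 4857 CPM in the knockout and from 4157 to 4335 CPM in the control library, below the G2/M level of each. With every cell thinned to 2000 UMIs, G2/M cells had 5545 CPM in knockout and 5143 CPM in control. Thinned resting cells of those libraries had 4678 and 4277 CPM. Thinning keeps the expected shares of each cell, so these values cannot show what depth does. The highest decile by UMIs had a median of 7530 UMIs in knockout, below G2/M cells, and 11046 in control resting cells. The part of depth was not tested. With cytosolic ribosomal proteins left out of the totals, a choice made after seeing the data, the members took 7287 CPM in knockout and 6991 CPM in control G2/M cells. On that scale they took 7428 CPM in knockout and 6600 CPM in control T-like cells, and 7414 CPM in knockout and 7415 CPM in control dendritic-like cells.

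**Figure D3:**
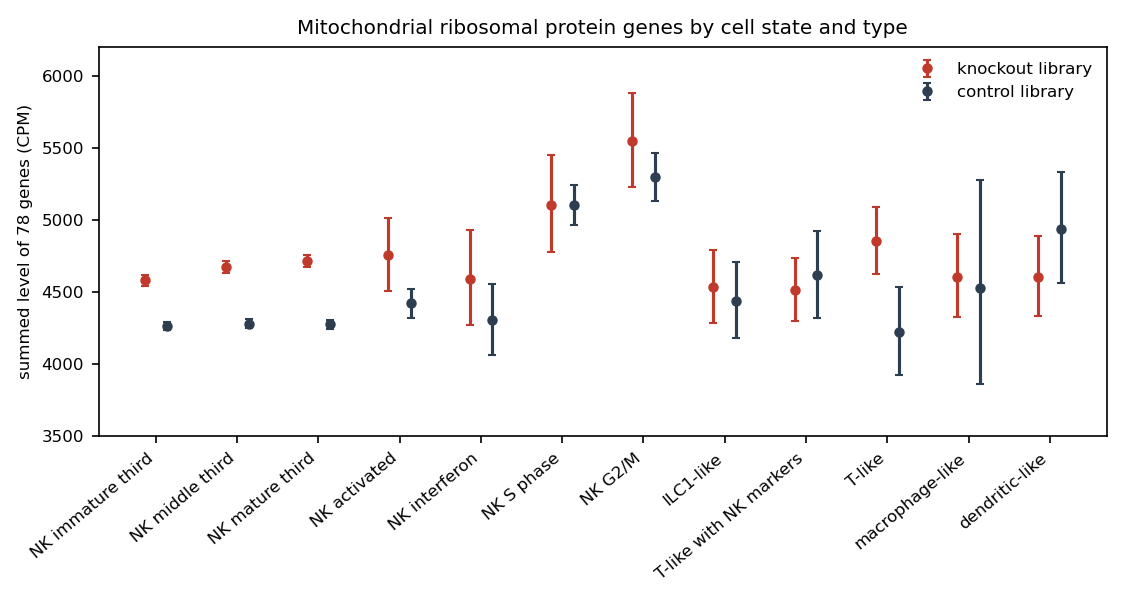
Summed CPM of the 78 members (y axis, which does not start at 0) in each state and cell type, with 95% Poisson intervals for counting error, knockout in red and control in dark. G2/M cells at 5550 CPM in knockout and 5296 CPM in control stand above the other NK states, with all UMIs in the totals, and resting tertiles lie between 4264 and 4717 CPM.

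In G2/M against resting NK cells, 14 of 73 members rose (19.2%) and 0 fell, against 11.4% and 7.84% of all genes (edgeR's quasi-likelihood test with Benjamini-Hochberg adjustment). The median log2 fold change was 0.29 for the members and -0.07 for all genes tested. The 5 members with the largest change were Mrps22, Mrpl27, Mrpl42, Mrpl51 and Mrpl10, at 1.05, 1.04, 1.02, 0.998 and 0.86. Mrpl42, a mitochondria-specific protein of the large subunit, had 123 CPM in G2/M and 72.6 CPM in resting knockout cells, and 133 CPM in G2/M and 65.9 CPM in resting control cells (adjusted p = 1.7e-06 by that edgeR test). Mrpl51, also mitochondria-specific, had 147 CPM in G2/M and 83.1 CPM in resting knockout cells, and 138 CPM in G2/M and 70.4 CPM in resting control cells. Mrps22, a small subunit protein, rested on 8 UMIs in knockout and 22 UMIs in control G2/M cells. The abundant Mrpl33 rose by 0.69 ± 0.10 on the log2 scale (SE), with 309 CPM in G2/M and 223 CPM in resting knockout cells, and 417 CPM in G2/M and 263 CPM in resting control cells. The others that rose were Mrpl18, Mrpl28, Mrpl20, Mrpl57, Mrps14, Mrps18c, Mrps36 and Mrps16. Every one of the 14 was higher in G2/M in each library. The calls came from these same libraries, and 35 of all 73 tested members were higher in both. Of these 14 genes, 4 lie head to head with another gene: Mrpl10, Mrpl51, Mrpl57 and Mrps18c. The count was 4 with the library left out as a block, where 4.57% of all genes rose. It was 5 of 78 with no filter on low genes, where 4.28% rose, and 24 of 75 with only these states fitted, where 15.3% rose. In cells thinned to 2000 UMIs it was 0, where 3.02% of all genes rose. The members' median was 0.27 with no block and 0.21 in thinned cells. Simulated 2-fold changes were recovered in 73.7% of cases here and 1.5-fold changes in 24.5%, at the same fixed spread, larger than that of the fit.

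In S phase, 12 of 73 members rose (16.4%) and 0 fell, against 7.39% and 3.67% of all genes (edgeR's quasi-likelihood test with Benjamini-Hochberg adjustment). The median was 0.24 for the members and -0.06 for all genes. Mrps28, Mrpl35, Mrpl23, Mrpl13 and Mrpl12 had the largest change. Mrpl23, which lies at the exit of the nascent chain, had 175 CPM in S phase and 92.2 CPM in resting knockout cells, and 133 CPM in S phase and 82.4 CPM in resting control cells, a log2 fold change of 0.77 ± 0.13 (SE). Mrpl12, a stalk protein that recruits factors to the ribosome, had 90.2 CPM in S phase and 61.5 CPM in resting knockout cells, and 85.1 and 54.5 CPM in the control library in the same order. The value for Mrps28, 1.34, rested on 32 UMIs of the control library, since the knockout library held 2 UMIs at 11.3 CPM in S phase and 11.01 CPM in resting cells. Mrpl33, Mrpl18, Mrpl21, Mrpl42, Mrps15, Mrps18c and Mrps36 rose too. With no block 0 members rose in S phase, in thinned cells 1, with no filter 3, and with only these states fitted 20. The members' median was 0.19 with no block and 0.24 in thinned cells. G2/M and S phase cells share the resting cells they were set against. By ancestry, 10 of 44 bacterial homologues and 1 of 27 mitochondria-specific members rose in S phase, and 9 of 44 and 4 of 27 in G2/M; these splits were not tested against each other.

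Other lists were counted in dividing cells by the same test, and the lists were not tested against each other. Among nuclear respiratory chain genes, 45 of 75 rose in G2/M and 30 of 75 in S phase (edgeR's quasi-likelihood test), and 0 fell in either. Of 80 cytosolic ribosomal proteins, 15 rose and 1 fell in G2/M, and 21 rose and 0 fell in S phase. The background for the counts in these lists is all genes tested, of which 11.4% rose and 7.84% fell in G2/M. In S phase 7.39% of all genes rose and 3.67% fell. Cox5b, a subunit of cytochrome c oxidase, rose by 0.98 in G2/M, and Cox7a2 by 0.79. Of the 5 ribosome proteins without an Mrp name, 2 rose in G2/M, Chchd1 by 0.64 and Aurkaip1 by 0.38. Tfam, which packages and transcribes mitochondrial DNA, rose by 0.86 in S phase, and the import gene Timm50 rose by 1.15 in G2/M and 1.08 in S phase. Lars2, a mitochondrial leucyl-tRNA synthetase, fell by 0.36 on the log2 scale in G2/M and by 0.43 in S phase. None of 11 assembly factors, 10 translation factors or 13 mitochondrially encoded genes passed the test in G2/M by edgeR, and at an unadjusted p under 0.05 the count was 0 in each of these lists.

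Activated cells, gated on chemokine and immediate early genes such as Ccl3, Xcl1 and Egr1, stood close to resting cells. They had 4756 CPM in the knockout (60 cells) and 4420 CPM in the control library (242 cells), log2 ratios of 0.03 and 0.05. Of 73 members, 4 rose (5.48%) and 0 fell, against 4.39% and 2.43% of all genes (edgeR's quasi-likelihood test with Benjamini-Hochberg adjustment), so the share was near the background. Mrps18b had 30.9 CPM in activated and 12.4 CPM in resting knockout cells, and 20.3 and 10.2 CPM in the control library, on 9 and 35 UMIs in activated cells. Mrps6, Mrpl36, a bacterial L36 homologue, and Mrpl52 rose by 0.66, 0.49 and 0.30. With no filter, and in thinned cells, 1 member rose, where 1.40% and 1.92% of all genes did. With no block 0 rose, where 0.673% of all genes did. The import chaperones Timm8a1, Timm10 and Timm9 rose by 1.25, 0.97 and 0.91, among 4 of 21 import genes. Cells rich in interferon-response genes had 4591 CPM in the knockout (39 cells) and 4305 CPM in the control library (40 cells). There 1 of 73 members rose and 0 fell, against 3.38% and 0.528% of all genes. It was Mrpl30, with 275 CPM in these and 159 CPM in resting knockout cells, and 220 and 145 CPM in the control library (log2 fold change 0.74 ± 0.16, SE, adjusted p = 0.00102 by edgeR's quasi-likelihood test). With no block, no filter or thinned cells the count was 0, where 1.98%, 1.25% and 1.83% of all genes rose. DESeq2 called 2, where 4.16% of all genes rose.

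**Figure D4:**
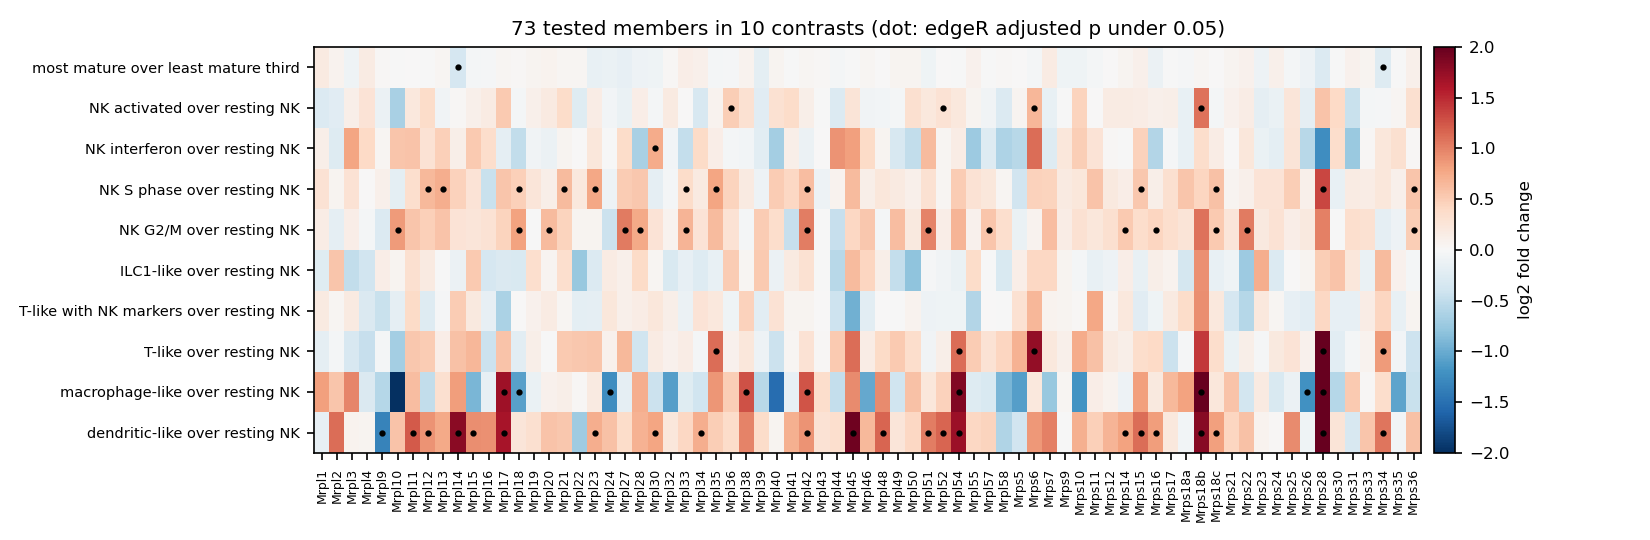
Log2 fold change (colour, limited to 2 in size) of each of the 73 tested members (columns) in 10 contrasts (rows), with a black dot where edgeR's adjusted p is under 0.05. Dots fall on 14 members in G2/M and 12 in S phase, and Mrps28 is dark red in T-like, macrophage-like and dendritic-like cells.

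Among the lymphoid cells near NK cells, no member passed edgeR's test. ILC1-like cells were gated on markers such as Il7r, Tmem176b and Gpr183. They had 4534 CPM in the knockout (71 cells) and 4437 CPM in the control library (42 cells). T-like cells that also held NK markers had 4513 CPM in the knockout (75 cells) and 4615 CPM in the control library (34 cells). In ILC1-like cells 0 of 73 members rose and 0 fell by edgeR, against 1.23% and 0.633% of all genes; 4 were higher and 0 lower at an unadjusted p under 0.05, and DESeq2 called 1. In T-like cells with NK markers the counts were 0 and 0, against 1.28% and 0.660%, with 1 higher and 0 lower at an unadjusted p under 0.05 and 0 called higher and 0 lower by DESeq2.

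T-like cells without NK markers had 4852 CPM in the knockout (65 cells) and 4221 CPM in the control library (26 cells). Of 73 members 5 rose (6.85%) and 0 fell, against 6.76% and 6.54% of all genes (edgeR's quasi-likelihood test with Benjamini-Hochberg adjustment), a share at the background. Mrps28, the bacterial S1-type protein of the small subunit in mouse nomenclature, had 52.9 CPM in T-like and 11.01 CPM in resting knockout cells, and 45.8 CPM in T-like and 11.3 CPM in resting control cells, a log2 fold change of 2.38 ± 0.41 (SE, adjusted p = 9.4e-06 by that edgeR test). Mrps6 had 47.0 CPM in T-like and 17.5 CPM in resting knockout cells, and 80.1 and 24.0 CPM in the control library, a log2 fold change of 1.76. Mrpl54, Mrpl35 and Mrps34 rose by 1.12, 1.11 and 0.85. With no block, and in thinned cells, 3 members rose, where 3.80% and 3.38% of all genes did. With stricter gates 2 rose, where 5.87% of all genes did. Cytosolic ribosomal proteins made up 34.7% of UMIs in knockout and 36.0% in control T-like cells, and 76 of 80 of them rose.

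Macrophage-like cells were gated on markers such as C1qa, Vcam1 and Slc40a1. They had 4607 CPM in the knockout (107 cells) and 4527 CPM in the control library (26 cells), but with only 36228 UMIs in the control cells. There 6 of 73 members rose (8.22%) and 3 fell (4.11%), against 13.4% and 14.6% of all genes (edgeR's quasi-likelihood test with Benjamini-Hochberg adjustment), both below the background. Mrps28 had 60.4 CPM in macrophage-like and 11.01 CPM in resting knockout cells, and 82.8 CPM on 3 UMIs in macrophage-like and 11.3 CPM in resting control cells, a log2 fold change of 2.65. Mrpl54, a mitochondria-specific protein of the large subunit, had 125 CPM in macrophage-like and 39.6 CPM in resting knockout cells, and 166 and 37.3 CPM in the control library. Mrps18b, Mrpl17, Mrpl38 and Mrpl42 rose by 2.12, 1.69, 1.28 and 1.26. Mrps26 had 41.8 CPM in macrophage-like and 107 CPM in resting knockout cells, and 27.6 CPM on 1 UMI in macrophage-like and 68.4 CPM in resting control cells, a log2 fold change of -1.20. Mrpl24 and Mrpl18 fell by 1.25 and 1.08 on the log2 scale. The number that fell was 6 with total-count scaling, where 6 rose, against 17.1% lower and 12.5% higher of all genes. It was 8 with no filter on low genes, where 5 rose, against 9.73% and 8.06%. It was 1 with DESeq2, with no block, in thinned cells and with stricter gates, where 10, 7, 4 and 8 rose in that order. In these settings 10.1%, 11.8%, 5.85% and 11.9% of all genes fell, and 16.7%, 11.1%, 6.79% and 14.5% rose. Simulated 2-fold changes were recovered in 26.1% of cases in this contrast. The simulated spread was larger than that of the fit, and changes of that size could be missed here.

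Dendritic-like cells were gated on markers such as Cd74 and the class II genes H2-Aa, H2-Ab1 and H2-Eb1. They had 4605 CPM in the knockout (95 cells) and 4938 CPM in the control library (63 cells). With scaling by the trimmed mean of M values, 21 of 73 members rose (28.8%) and 1 fell, against 15.2% and 16.0% of all genes (edgeR's quasi-likelihood test with Benjamini-Hochberg adjustment), and the median was 0.58 against -0.29 for all genes. In thinned cells 3 rose, where 7.502% of all genes did, and with no filter on low genes 8 of 78, where 7.48% did. With scaling by the total count 6 rose and 2 fell, against 9.54% and 33.7% of all genes. There the median of all genes was -0.82 and that of the members 0.02. The members' share that rose was above that of all genes with no filter, and below it with thinning and with total-count scaling. Cytosolic ribosomal proteins made up 37.9% of UMIs in knockout and 33.4% in control dendritic-like cells, and 78 of 80 rose. Mrps28, Mrpl45, Mrps18b, Mrpl14 and Mrpl54 had the largest change, at 2.56, 1.95, 1.83, 1.80 and 1.71. Mrpl14 had 105 CPM in dendritic-like and 55.4 CPM in resting knockout cells, and 153 CPM in dendritic-like and 46.5 CPM in resting control cells. Mrpl9 fell, with 30.6 CPM in dendritic-like and 82.9 CPM in resting knockout cells, and 7.64 CPM on 1 UMI in dendritic-like and 80.8 CPM in resting control cells, a log2 fold change of -1.34. Among the members that rose, the CPM moved in opposite directions in the libraries for 3: Mrpl12 (-0.12 in knockout, 0.97 in control), Mrps15 (1.02 in knockout, -0.56 in control) and Mrpl23 (-0.01 in knockout, 0.48 in control).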

How the data were processed

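The deposited matrices hold raw counts of UMIs per gene and barcode, with no normalization by the authors, per the file headers. STAR, Cell Ranger 3.0.0, Seurat and the build GRCm39 are named in the submitters' processing notes; positions here come from GENCODE and RefSeq for GRCm38, matched by gene ID (31011 of 31053) or symbol. A cell needed 500 genes or more and a mitochondrial share of UMIs of 10% or less. Types were gated after thinning to 1000 UMIs (at least 3 marker UMIs for NK, T and ILC1, 4 for macrophage, 10 for dendritic, few of other types) and NK states after thinning to 2000 (at least 3 for G2/M and interferon, 4 for S phase, 10 for activated). Doublets were not called or removed; the gates leave out cells with markers of several types, and doublets of alike cells stay. The libraries shared 33 barcode sequences. Counts were summed per library and gate, and edgeR 4.0.16 (glmQLFit, TMM, library as block, genes of at least 10 CPM, 24 sums, threshold 0.05 after Benjamini-Hochberg) gave state contrasts, with DESeq2 1.42.0 as an alternative, in R 4.3.3. Nothing pairs samples beyond the library, so the replicates of a state contrast are 2 libraries. The p-values rest on a spread between sums that is shared over all 12 states and types in the fit, with 11 residual degrees of freedom. The tertiles of resting cells of a library entered as separate sums. The spread is thus not that of the named contrast alone. Genotypes were compared by size (log2 0.32) with exact conditional binomial intervals at 95%, which cover counting error only. On simulated counts all 1.5-fold and 2-fold genotype changes passed that bound (100%) and 0% of unchanged genes did. Those counts held counting error alone, with no spread between libraries or mice, so they give no false rate between genotypes.

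Named members were the 6 highest and 4 lowest in level, up to 8 in each direction between genotypes, up to 5 in each direction among those called in a state, those called with opposite directions in the libraries, and up to 3 of each other list. Genes listed beyond these to complete a count were chosen after their values were seen. The members, lists and gates were chosen with earlier results of these data known. Alternatives were other scalings, filters, gates and thinning, a fit without the block and a fit of fewer states. Python 3.11.15, numpy 2.4.6, pandas 2.3.3, scipy 1.17.1 and matplotlib 3.10.9 were used.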

Additional observations from a re-analysis of the deposited data

Results flagged for a closer look

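The summed level of the members, set against resting NK cells, moved in opposite directions in the knockout and control libraries for 6 of 9 states and types. The difference between libraries was not tested for any of them, since each genotype has 1 library. The difference, knockout minus control on the log2 scale, was -0.0305 in interferon cells (-0.02 in knockout, 0.01 in control) and -0.0924 in ILC1-like cells (-0.04 in knockout, 0.05 in control). It was -0.16 in T-like cells with NK markers (-0.04 in knockout, 0.11 in control) and 0.0776 in T-like cells without them (0.06 in knockout, -0.02 in control). It was -0.10 in macrophage-like cells (-0.01 in knockout, 0.08 in control) and -0.22 in dendritic-like cells (-0.02 in knockout, 0.21 in control). The intervals of the control values lay above 0 in T-like cells with NK markers (0.02 to 0.21) and in dendritic-like cells (0.10 to 0.32), and every other one of these 12 values had an interval that held 0. With cytosolic ribosomal proteins left out of the totals, a choice made after seeing the data, 3 of the 6 had 1 sign in both libraries: T-like cells (0.25 in knockout, 0.23 in control), dendritic-like cells (0.25 in knockout, 0.40 in control) and macrophage-like cells (-0.14 in knockout, -0.02 in control).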

How the results depend on the processing

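Between genotypes, the summed log2 ratio of 0.12 was 0.14 within the most mature and 0.10 within the least mature tertile, and 0.15 without cytosolic ribosomal proteins in the totals, a choice made after seeing the data. The counts of 13 higher and 4 lower members stayed within 13 to 15 and 4 to 6 in every setting tried. The summed ratio to resting cells was 0.25 in knockout and 0.31 in control G2/M cells, and 0.13 in knockout and 0.26 in control S phase cells. Without cytosolic ribosomal proteins in the totals it was 0.23 in knockout and 0.32 in control G2/M cells, and 0.19 in knockout and 0.30 in control S phase cells. State calls moved more. The share of all genes called moved with the settings too, and is given with many of the counts above or here. Without the replicate block, which pairs the sums of a library, 4 members rose in G2/M, 0 in S phase, 0 in activated cells, 0 in interferon cells and 3 in T-like cells, and 0 fell with maturation. Thinning to 2000 UMIs left 0 in G2/M, 1 in S phase, 1 in activated, 0 in interferon, 3 in T-like and 3 in dendritic-like cells. In that fit 1 fell with maturation, where 3.61% of all genes fell, and fewer UMIs entered it. Cells of the other types with fewer than 2000 UMIs were left out of it, so it also held fewer of these cells. Median UMIs were 1987 in knockout and 1673 in control dendritic-like cells, and 1551 and 1309 in macrophage-like cells. In the thinned fit Mrps18b in dendritic-like cells reversed to -0.30 (adjusted p = 0.925 by edgeR, with a range of 0.00164 to 0.925 over its settings), and the cause was not tested. With no filter on low genes 5 rose in G2/M, 3 in S phase, 1 in activated, 0 in interferon and 8 in dendritic-like cells. A fit of only the states compared called 24 in G2/M, 20 in S phase and 1 in ILC1-like cells. There 15.3%, 11.5% and 2.16% of all genes rose. DESeq2 called 2 in interferon, 1 in ILC1-like and 10 in macrophage-like cells, where 4.16%, 2.03% and 16.7% of all genes rose. It called 0 that fell with maturation. Total-count scaling called 6 in dendritic-like cells, and stricter gates called 2 in T-like cells; for the counts whose setting does not itself reduce UMIs or samples, the cause was not tested. In T-like, macrophage-like and dendritic-like cells the levels rest on 26 to 107 cells per library, and single members there on as little as 1 UMI.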

Other observations

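The messenger RNAs that mitochondrial ribosomes translate differed between cell types. Of 13 mitochondrially encoded genes, 9 rose in T-like cells, where 6.76% of all genes rose, and 9 rose in macrophage-like cells, where 13.4% did, by edgeR's quasi-likelihood test with Benjamini-Hochberg adjustment. In T-like cells mt-Cytb, the cytochrome b of complex III, rose by 0.81 and mt-Nd1, a subunit of complex I, by 0.60 on the log2 scale. In dendritic-like cells 4 of 13 fell, among them mt-Nd5 by 0.58, where 16.0% of all genes fell. Mitochondrially encoded genes made up 5.31% of UMIs in knockout and 4.33% in control T-like cells, against 4.01% and 3.6% in resting NK cells of those libraries. Lars2 rose by 1.504 in macrophage-like cells and by 0.58 in dendritic-like cells. The filter on mitochondrial UMIs acts on the same genes, and its part in these values was not tested.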
